A study of Mus musculus with 8 samples.

Results

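The Foxa forkhead genes, Foxa1, Foxa2 and Foxa3, were examined by the accessible regions around them in mouse embryonic stem cell-derived cardiac progenitors. The assay was ATAC-seq, which uses the transposase Tn5 to tag open chromatin for sequencing. The regions were chosen as the peaks whose summit had 1 of the 3 genes as the nearest RefSeq protein-coding gene of mm10, within 100 kb. This gave 48 of 172983 peaks, which merged into 34 of 121250 regions over 3 peak lists. By list, 19 regions came from day 7 (D7) cells with GLI1 induction, 5 from D7 control cells and 10 from day 5 (D5) control cells.

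The labels give 3 groups of the cell line GLI1-FTA, strain A2Lox.cre, made to differentiate toward cardiomyocytes. The D7 GLI1 OE group had 3 libraries from cells given 500 ng/ml doxycycline for 48 hours before harvest at D7, to overexpress the Hedgehog effector GLI1. The D7 control group had 3 untreated libraries and the D5 control group 2. All groups come from that 1 line. Only GLI1 cells received doxycycline, and an effect of the drug cannot be told apart from one of GLI1. Each group is represented by 1 pooled peak list with no replicates, so no difference below has a replicate check and no p-value is given. That the list named only as control belongs to D7 is an inference from its pairing with the doxycycline list.

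Foxa proteins are forkhead transcription factors known as pioneer factors, since they can bind their sites in closed chromatin and help to open it. Foxa2 marks the node, notochord, floor plate and definitive endoderm of the early embryo, and in the floor plate it is induced by Hedgehog signalling through GLI factors. Foxa1 overlaps with it in endoderm and neural tissue, and Foxa3 acts mainly in the gut tube and liver. In the embryonic heart, Hedgehog signals act on progenitors of the second heart field.

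In these lists the fold of a peak is the authors' enrichment at its summit over a background. The fold and the deposited −log10 p together gave back the whole number of reads stacked at each summit and the background behind it. Background was constant in the D7 lists, at 4.70 reads per base with GLI1 and 4.56 in control. In the D5 list it was local, with a median of 0.967, so D5 folds are on another footing than D7 folds. The lowest summit listed had 13 reads in both D7 lists and 4 in the D5 list, over these different backgrounds. Read numbers carry exact 95% Poisson intervals, which cover counting error only. As a check of the labels, Gli1 had 6 regions in the GLI1 list that were absent from the D7 control list and 0 of the opposite kind. In bulk cells, a site open in more cells and a site more open in each cell cannot be told apart.

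Among regions assigned to the Foxa genes and shared by the D7 lists, that at the Foxa2 start had the highest fold ratio, so the sequences of its start sites are shown first. RefSeq gives Foxa2 3 start sites on the minus strand of chromosome 2 in build GRCm38.p6, the assembly known as mm10. Each window runs 5′ to 3′ from 250 bases before a start to 50 bases after it. Capitals mark the bases inside the D7 control region.
Foxa2 upstream start, chr2:148046920-148047219: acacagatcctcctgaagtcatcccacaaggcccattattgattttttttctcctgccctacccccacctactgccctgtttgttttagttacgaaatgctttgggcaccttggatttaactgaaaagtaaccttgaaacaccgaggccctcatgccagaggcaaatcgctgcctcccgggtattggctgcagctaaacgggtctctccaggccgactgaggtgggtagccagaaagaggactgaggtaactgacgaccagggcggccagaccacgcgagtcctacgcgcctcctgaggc
Foxa2 middle start, chr2:148045899-148046198: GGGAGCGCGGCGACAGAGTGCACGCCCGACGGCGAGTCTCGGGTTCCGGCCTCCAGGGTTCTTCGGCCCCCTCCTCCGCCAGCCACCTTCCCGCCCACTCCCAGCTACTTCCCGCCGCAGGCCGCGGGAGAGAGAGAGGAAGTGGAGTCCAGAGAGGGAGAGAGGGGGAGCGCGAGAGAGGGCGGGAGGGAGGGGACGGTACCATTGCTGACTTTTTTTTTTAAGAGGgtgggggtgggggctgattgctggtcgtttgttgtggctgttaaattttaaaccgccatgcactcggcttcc
Foxa2 downstream start, chr2:148045415-148045714: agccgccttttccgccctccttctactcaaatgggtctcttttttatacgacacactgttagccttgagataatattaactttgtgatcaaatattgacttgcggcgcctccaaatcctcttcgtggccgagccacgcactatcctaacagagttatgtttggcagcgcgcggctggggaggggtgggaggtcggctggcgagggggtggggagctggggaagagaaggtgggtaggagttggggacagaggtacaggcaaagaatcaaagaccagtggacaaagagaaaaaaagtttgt
The D7 control region covered 228 bases of the middle window and 0 of the other two. A region of the GLI1 list overlapped all 3 windows, and the D5 region overlapped the middle window only. Across all 21262 promoter windows of protein-coding genes, 56.7% overlapped a region with GLI1, 55.3% in D7 control cells and 53.0% at D5.

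At the Foxa2 start the accessible region was broader and higher with GLI1. It spanned 1621 bp in the GLI1 list (chromosome 2, 148045454 to 148047074), against 329 bp in the D7 control list (148045971 to 148046299). The summit held 115 reads with GLI1 (94.9 to 138), against 46 in D7 control cells (33.7 to 61.4), and these intervals do not overlap. The 2 summits lay 24 bases apart, 149 bases upstream of the middle start with GLI1 and 173 in control. As folds these were 20.4 with GLI1 and 8.46 in control, a ratio of 2.41. Of the 26277 regions shared by the D7 lists, 12.9% had a ratio of at least 1.5 and 17.1% one of at most 1 over 1.5, with a median of 1.05. Among the 8266 shared regions with a control fold from 4 to 9, 2.76% had a ratio as high as that of the Foxa2 start.

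The GLI1 region at the start was made of 5 peaks and the control region of 1. Besides the highest, these peaks had 84, 49, 48 and 38 reads. Of these, the interval of the peak with 84 reads (67.0 to 104) lay above that of the control summit, and the other intervals overlapped it. That with 38 reads lay 68 bases past the upstream start. With the median of the peaks in place of the highest, the ratio was 1.04, since the median takes in these flanking peaks. The region thus differed in width, in number of peaks and in its highest summit.

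A second shared region lay just upstream of Foxa2. It spanned 768 bp with GLI1 (148048506 to 148049273) and 501 bp in control (148048464 to 148048964). Its summit held 52 reads with GLI1 (38.8 to 68.2), against 28 in control (18.6 to 40.5), so the intervals overlap slightly. The folds were 9.30 with GLI1 and 5.22 in control, a ratio of 1.78, which 9.33% of like shared regions reached. Both shared Foxa2 regions thus passed the 1.5 ratio, and both were also present at D5, with 16 reads (9.15 to 26.0) at the start and 12 upstream.

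**Figure D1:**
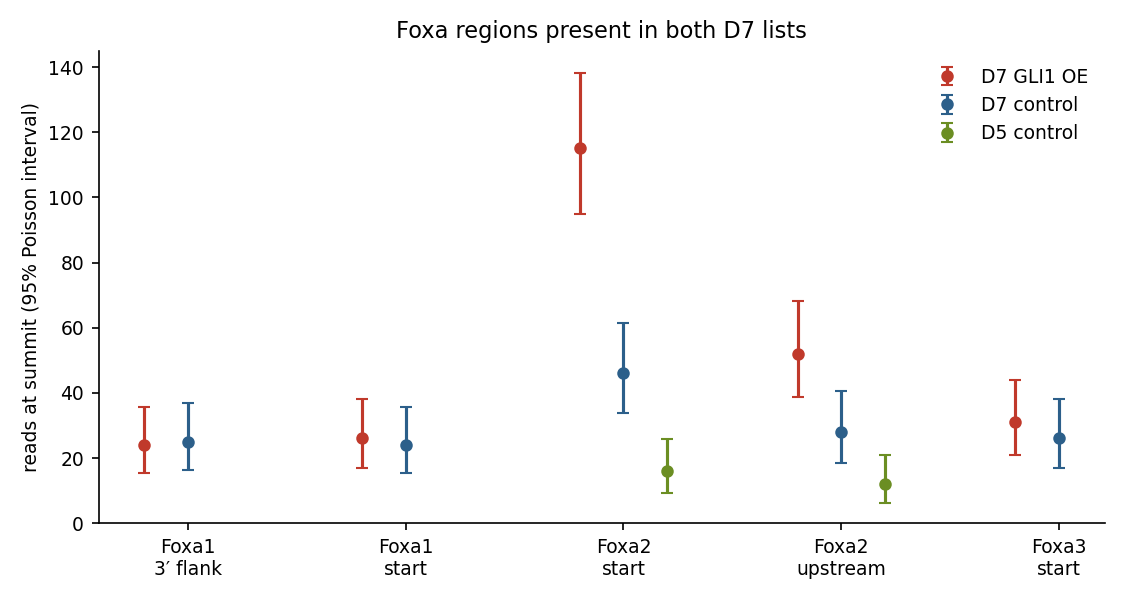
Reads at the summit of the 5 Foxa regions present in both D7 lists, with 95% Poisson intervals; each point is 1 pooled list, and D5 is drawn where it overlaps. At the Foxa2 start, 115 reads with GLI1 stand clear of 46 in D7 control cells, while the Foxa1 and Foxa3 regions lie close together.

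Beyond these, Foxa2 had 11 regions in the GLI1 list that were absent from the D7 control list, called gained, and 0 of the opposite kind, called lost. It thus had 13 regions with GLI1, covering 6737 bp, against 2 regions in D7 control cells, covering 830 bp. Over all regions, 39.0% of the GLI1 list were gained and 31.6% of the D7 control list were lost. Regions with low folds were gained more often, so strength matters for this count. Of all GLI1 regions with folds from 2.98 to 7.72, 56.4% were gained, and 59.6% of those over 1 kb from a gene. The gained Foxa regions themselves set that range, so their own share within it is not read. Had the 13 Foxa2 regions been gained as often as all regions of like fold, 6.63 of them would have been.

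The gained Foxa2 regions fell into a group close to the gene and a distal group. Inside the gene, regions at 148044493 to 148045048 and 148043719 to 148043918 had 23 and 16 reads with GLI1. Past the end of the gene, 4 regions stood between 148036809 and 148041325, with 19, 21, 20 and 30 reads. The highest of these, at 148040437 to 148041325, reached 5.44-fold, and a D5 region with 8 reads (3.45 to 15.8) overlapped it. Farther downstream, a region at 148022050 to 148022293 had 27 reads, 20.7 kb from the gene.

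Upstream of Foxa2, 4 gained regions stood far from any gene. The highest of all gained Foxa regions, at 148122116 to 148122743, had 43 reads (31.1 to 57.9) and a fold of 7.72, 75.4 kb from the gene. Next to it, a region at 148123720 to 148124100 had 19 reads and overlapped a D5 region with 7 reads (2.81 to 14.4). The remaining upstream regions, at 148082334 to 148082607 and 148112035 to 148112252, had 29 and 25 reads.

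Of the 13 Foxa2 regions in the GLI1 list, 3 were gained with a fold of at least 2 times the lowest D7 control fold, those with 43, 30 and 29 reads. Of all GLI1 regions, 9.05% were gained at that strength. The weakest summit of the D7 control list had 13 reads, and control reads at unlisted sites are not known. The other 8 gained regions of Foxa2 had 16 to 27 reads.

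**Figure D2:**
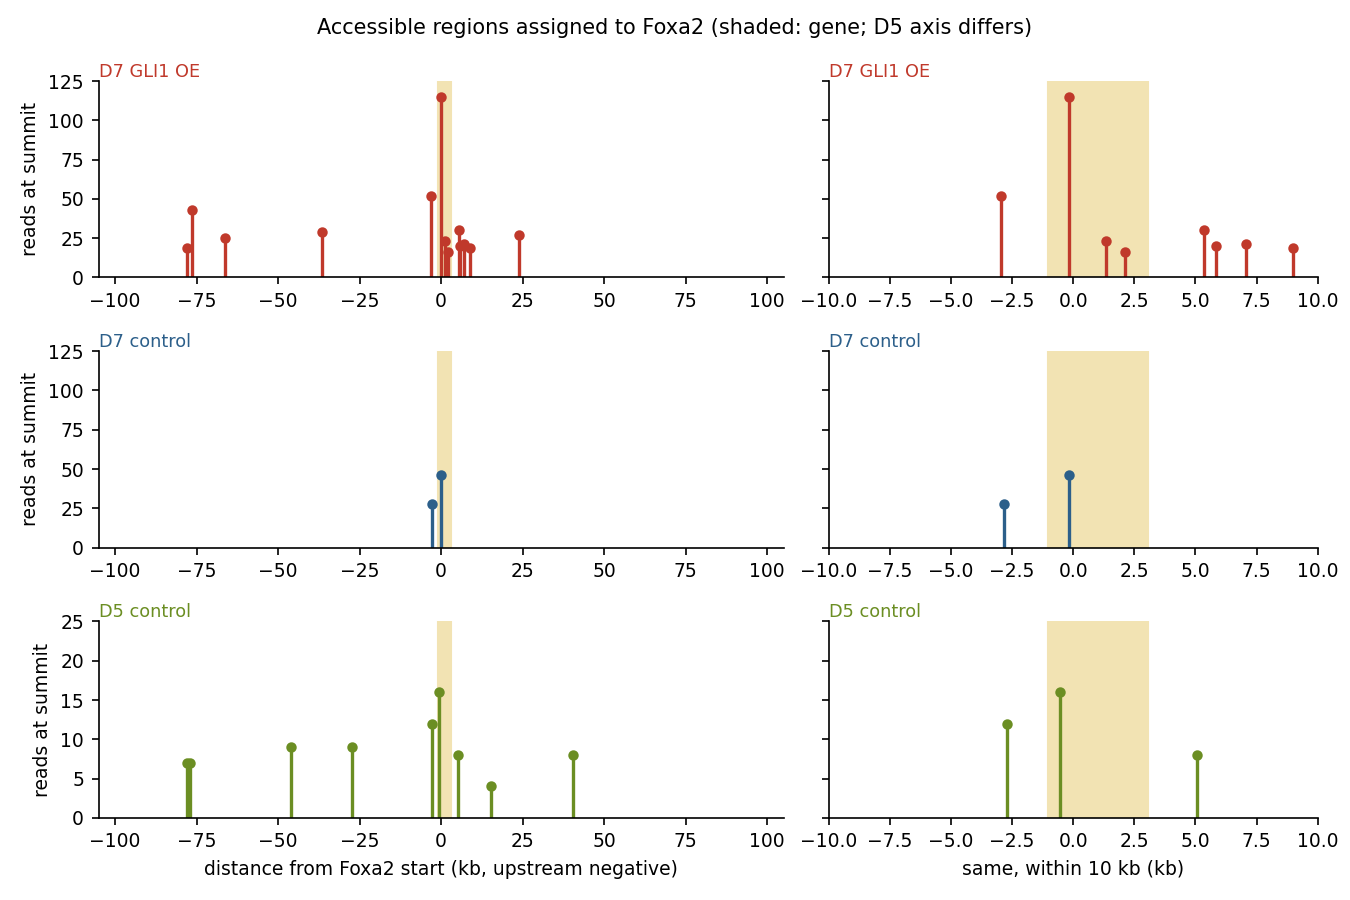
Accessible regions assigned to Foxa2 in each list, placed by the distance of their summit from the middle Foxa2 start (kb, upstream negative) and drawn as high as the reads at the summit; the right column enlarges 10 kb on each side, and the D5 axis is shorter. The GLI1 list has 13 regions, the D7 control list 2 and the D5 list 9.

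**Figure D3:**
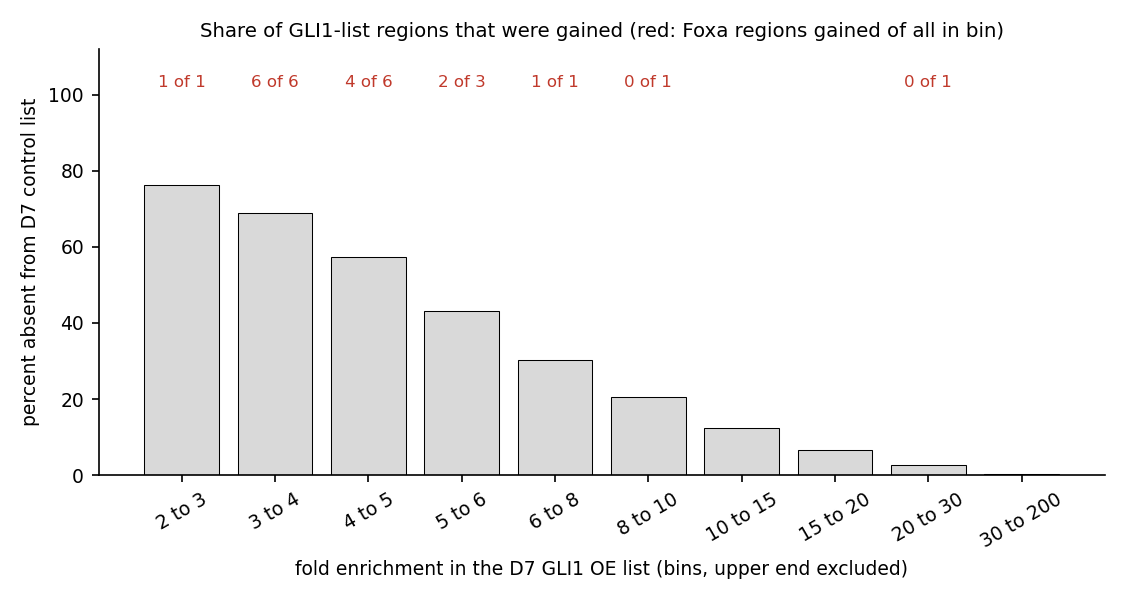
Percent of all GLI1-list regions absent from the D7 control list, by fold in the GLI1 list; red text gives the Foxa regions gained of all Foxa regions in the bin. The share fell with fold for all regions. Foxa regions gained were 6 of 6 at folds from 3 to 4 (68.8% of all), 4 of 6 from 4 to 5 (57.3%) and 2 of 3 from 5 to 6 (43.1%). The single Foxa regions in the bins from 2 to 3 and 6 to 8 were gained, and those from 8 to 10 and 20 to 30 were not.

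At Foxa1, summit heights were alike in the D7 lists, while the regions covered 2298 bp with GLI1 against 1029 bp in D7 control cells. Its start window carries the only match to the searched letters among the Foxa promoters, so it is shown, with capitals marking that match.
Foxa1 start, chr12:57546062-57546361, minus strand, GRCm38.p6: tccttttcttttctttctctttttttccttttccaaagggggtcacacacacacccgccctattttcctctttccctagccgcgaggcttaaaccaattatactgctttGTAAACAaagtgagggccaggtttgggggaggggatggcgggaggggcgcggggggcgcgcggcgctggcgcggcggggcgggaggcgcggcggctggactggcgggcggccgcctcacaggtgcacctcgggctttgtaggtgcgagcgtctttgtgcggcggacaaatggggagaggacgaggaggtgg
The letters GTAAACA are TGTTTAC, a forkhead core sequence, on the other strand, and begin 141 bases before the start. They lay inside the GLI1 region and 18 bases past the end of the D7 control region. On either strand, TGTTTAC occurred in 3.01% of promoter windows of the same length, TGTTTGC, a variant of that core, in 4.58%, and GACCACCCA, the GLI consensus, in 0.179%. No motifs overlapped here, since the match in Foxa1 was the only one of any of them in the 5 Foxa windows. A match describes letters and says nothing of binding.

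The region at the Foxa1 start had 26 reads with GLI1 (17.0 to 38.1), against 24 in D7 control cells (15.4 to 35.7), a fold ratio of 1.05. It was wider with GLI1, at 1513 bp made of 5 peaks, against 462 bp and 2 peaks in control. A region past the end of Foxa1 (57538820 to 57539312) had 24 reads with GLI1 against 25 in control, a ratio of 0.938. The intervals overlap at both. Foxa1 had 1 gained region, inside the gene at 57542345 to 57542636 with 27 reads, and 0 lost. No region of the D5 list was assigned to Foxa1, and its 2 D7 control regions and its 3 GLI1 regions were all absent at D5. For all regions, 55.0% of the D7 control list and 56.9% of the GLI1 list were absent at D5. So few regions give no result about Foxa1 against these shares. With regions assigned by the nearest gene end, 3 D5 regions fell to Foxa1.

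Around Foxa1 the larger differences lay nearer to other genes. Mipol1 and Ttc6 are its neighbours, and the annotated interval of Ttc6 overlaps that of Foxa1. A region at chromosome 12, 57496356 to 57497006, 44.0 kb from Foxa1 and 39.3 kb from Mipol1, had 45 reads with GLI1 (32.8 to 60.2) and overlapped a D5 region with 9 reads, but was not in the D7 control list. Inside Ttc6, 28.1 kb from Foxa1, a region present in all 3 lists had 64 reads with GLI1 (49.3 to 81.7), against 22 in D7 control cells (13.8 to 33.3). Another region in Ttc6, at 57554882 to 57555791, had 33 reads with GLI1 and was not in the other lists. Counting all regions within 100 kb whatever the nearest gene, Foxa1 had 6 with GLI1, 3 in D7 control cells and 5 at D5.

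Foxa3 sits among densely packed genes and kept few regions of its own. The region at its start had 31 reads with GLI1 (21.1 to 44.0), against 26 in D7 control cells (17.0 to 38.1), a fold ratio of 1.16 with overlapping intervals. Past the end of the gene, 2 gained regions at chromosome 7, 19012010 to 19012336 and 19012507 to 19012726, had 17 and 19 reads, near the lowest listed. That at 19012507 overlapped a D5 region with 9 reads, but by less than 50% of the shorter region. Within 100 kb, regions nearer to 10 other genes brought the totals to 25 with GLI1, 21 in D7 control and 16 at D5, of which 5 were gained and 3 lost. The share gained near Foxa3 by that count was below that of all regions, and the 3 lost regions lay at Dmpk.

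**Figure D4:**
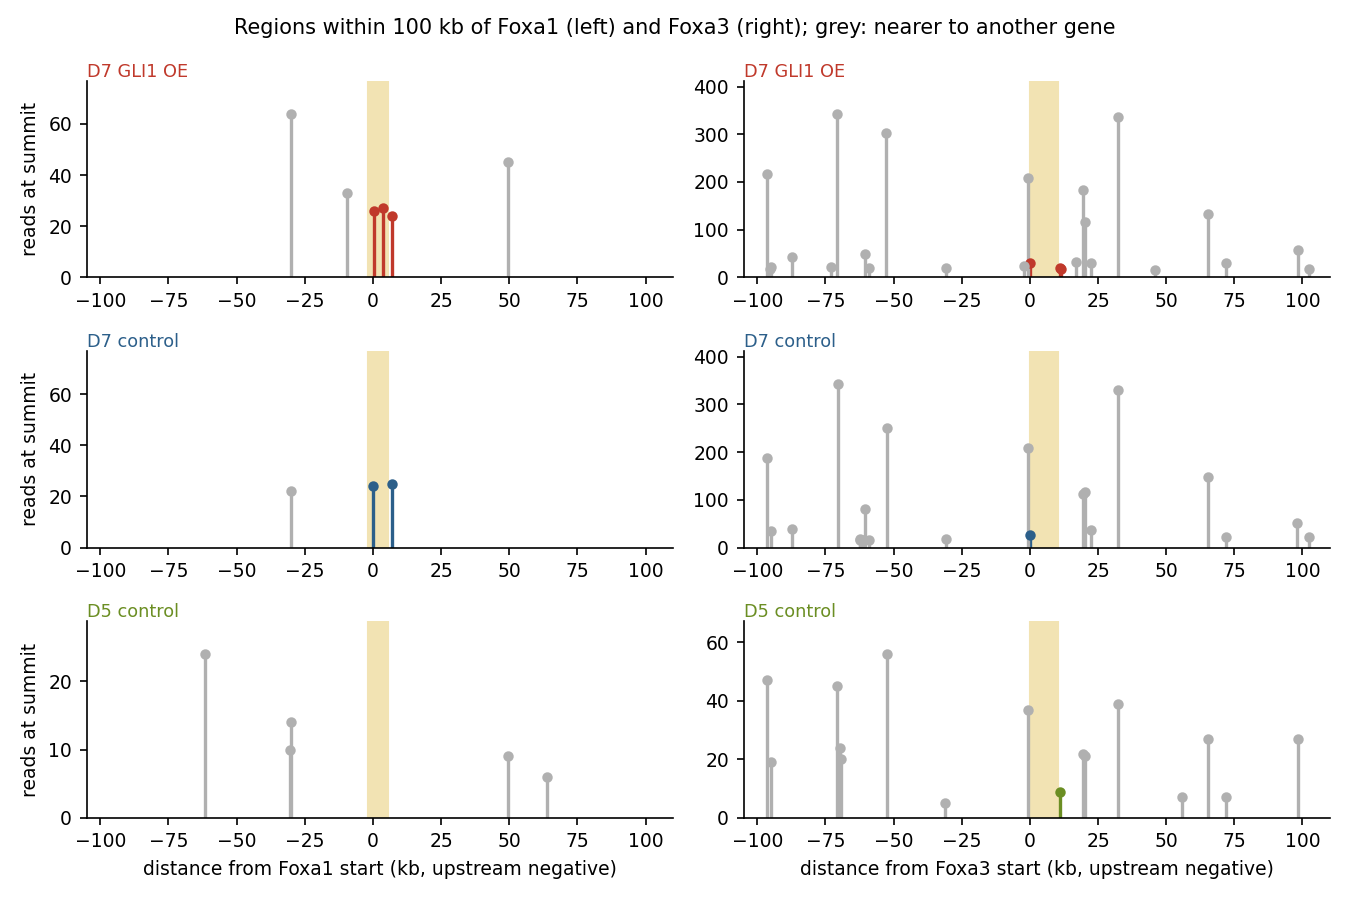
Regions within 100 kb of Foxa1 (left) and Foxa3 (right) by distance from the gene's start (kb, upstream negative), drawn as high as the reads at the summit; coloured regions have the Foxa gene as nearest, grey ones another gene, and the D5 axes are shorter. At their starts the D7 lists differ by 2 reads for Foxa1 (26 and 24) and by 5 for Foxa3 (31 and 26), whereas grey regions flanking Foxa1 reach 64 and 45 reads with GLI1.

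Together the 3 genes had 14 gained and 0 lost regions. That is 73.7% of their 19 GLI1 regions, against 39.0% of all regions, while 10.2 would have been gained at the share of all regions of like fold. By gene, Foxa2 had 11 gained against 6.63 at that share, Foxa1 1 against 1.72 and Foxa3 2 against 1.81. Among the 15103 genes with a D7 region, 34.7% had more gained than lost regions and 20.6% more lost. Foxa2 had a net of 11, and 4 genes had a higher one. Of the 3678 such genes of at most 10 kb, none had a higher net than Foxa2, which spans 4.09 kb. Foxa2 was noticed for this count in earlier work on the same lists, so its place is a description. The limit on gene length does not level the spacing of genes. All regions within 100 kb of Foxa2 had it as nearest gene, while many of those near Foxa3 were nearer to 10 other genes.

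Between D7 control and D5 control cells, Foxa2 had 2 regions in the D7 control list against 9 in the D5 list, which differ in depth. None of the 2 was absent at D5 (opened, 55.0% of all D7 control regions), and 7 of the 9 D5 regions were absent at D7 (closed, 50% of all D5 regions, 19719 of 39436). The D5 regions of the Foxa genes had 4 to 16 reads, and among all D5 regions in that range 65.4% were closed, and 7 of 9 is near that share, so it is no result about Foxa2. The closed Foxa2 regions had folds from 3.49 to 6.58 over a local background of 0.434 to 1.30 reads. The weakest, at 148030486 to 148030609, rested on 4 reads (1.09 to 10.2) and that with the highest fold, at 148073099 to 148073303, on 9 (4.12 to 17.1).

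Of the 7 closed Foxa2 regions, 2 were present in the GLI1 list, those at 148040751 to 148041005 and 148123937 to 148124060. Another, at 148122792 to 148123058, lay 48 bases from the GLI1 region with 43 reads. Over all closed regions, 12.5% were present with GLI1, and of all gained regions 13.5% were in the D5 list. The Foxa2 shares of 2 of 7 and 2 of 11 were above these, but each rests on 2 regions. Foxa3 closed its only D5 region and Foxa1 had none to close.

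Against D5 control cells directly, the GLI1 list had 9 Foxa2 regions absent at D5 and lacked 5 of the 9 D5 regions. For all regions these shares were 56.9% and 46.7%, and no result about Foxa2 is read from the difference. The Foxa2 regions in both lists were the start, the upstream region, the region past the gene end and that at 76.9 kb. The D5 list differs in depth and in how its background was set, and its part in these counts was not tested.

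With Foxa2 as the nearest gene, 7 regions of the GLI1 list, 3 of the D7 control list and 3 of the D5 list lay beyond it. In the GLI1 list the farthest inside lay at 76.9 kb with 19 reads and the nearest outside at 110.8 kb with 14. In the D7 control list these lay at 1.79 kb with 28 reads and at 110.2 kb with 16. In the D5 list they lay at 77.0 kb with 7 reads and at 219.5 kb with 6.

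Genes that work with the Foxa factors were counted from lists. The list of 8 Hedgehog transducers and targets holds Gli1, the gene of the overexpressed factor, which served above as the check of labels. Of the 73 GLI1 regions of these 8 genes 54.8% were gained, and of their 45 D7 control regions 22.2% were lost. Over all regions these shares were 39.0% and 31.6%. Net counts by gene are not scaled by the number of regions a gene has. All 8 had more gained than lost regions, with a median net of 3.5 against 0 over all genes with a D7 region. These included Hhip, a Hedgehog-binding inhibitor, with 8 gained and 1 lost, Ptch1, the Hedgehog receptor, with 8 and 3, and Gli2, a GLI factor, with 6 and 1, whereas Gli3, another GLI factor, had 5 and 3. Of 17 floor plate, node and notochord genes, 10 had more gained and 4 more lost, against 34.7% and 20.6% of all genes, with a median net of 1. By region, 41.8% of their 91 GLI1 regions were gained and 34.2% of their 79 D7 control regions were lost. These shares are near the 39.0% and 31.6% of all regions, so the gene counts are not read as a result about this list. Nkx2-2, a ventral neural tube factor, had 6 gained and 1 lost, and Lmx1b 9 and 6, while Spon1, a secreted floor plate protein, had 0 and 4. Shh, the Hedgehog ligand of the floor plate, had 0 gained and 1 lost.

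Of 18 endoderm genes, 6 had more gained and 2 more lost, and their median net was 0. The 34.7% of all genes counts only genes with a D7 region, and 4 of the 18 had none, so the shares are not compared. Of their 55 GLI1 regions 52.7% were gained and of their 41 D7 control regions 36.6% were lost, against 39.0% and 31.6% of all regions. Prox1, a hepatic and lymphatic factor, had 10 gained and 4 lost, and Sox17, an endoderm factor, 4 and 0, against Ttr, a liver transport protein, with 1 and 2 and Epcam, an epithelial adhesion protein, with 0 and 1. Of 41 other forkhead genes, 20 had more gained and 7 more lost, with a median net of 0. They had 46.8% of their 205 GLI1 regions gained and 28.0% of their 164 D7 control regions lost, against 39.0% and 31.6% of all regions. Foxp1 had 19 gained and 5 lost, Foxp2 11 and 4, Foxd2 7 and 0, and Foxf1, a mesenchymal forkhead factor, 6 and 0. In the other direction Foxc1 had 1 and 4, Foxl1 1 and 3 and Foxb1 0 and 2. Among the 44 forkhead genes, Foxa2 shared its gained count with Foxp2 and had no lost region.

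**Figure D5:**
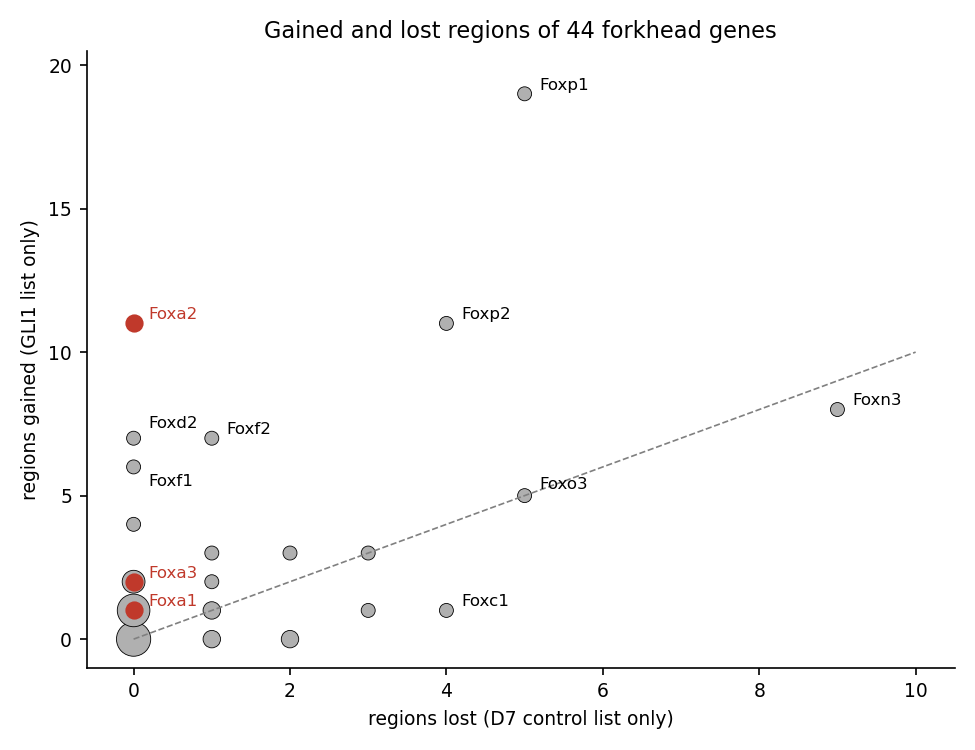
Regions gained (vertical axis) and lost (horizontal axis) with GLI1 at D7 for 44 forkhead genes, Foxa genes in red; larger grey circles stand for more genes at the same position and the dashed line marks equal numbers. Foxa2 lies at 11 gained and 0 lost, and Foxa1 and Foxa3 lie at 1 and 2 gained.

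Promoter windows of cell type markers were compared because Foxa2 marks endoderm and floor plate. Of 8 cardiac progenitor markers with a window, 5 overlapped a region with GLI1, 7 in D7 control cells and 5 at D5. Those of Nkx2-5, Hand2 and Tnnt2 were not in the GLI1 list, and that of Mesp1 was not in the D7 control list. Those of Hand2, Tnnt2 and Mesp1 were not in the D5 list. Of 4 endoderm markers with a window, Foxa2 among them, 2 were overlapped in every list, while Cer1 and Epcam were in none of the 3 lists. Of the floor plate and notochord markers, Noto was in none, and T was in the GLI1 and D5 lists and not in the D7 control list. The endoderm markers had 18 of 28 GLI1 regions gained and 4 of 14 D7 control regions lost. The floor plate and notochord markers had 13 of 20 gained and 2 of 9 lost. Foxa2 gave 11 of 13 gained and 0 of 2 lost in both sets. The cardiac progenitor markers had 14 of 39 gained and 13 of 39 lost, and the neural progenitor markers 10 of 28 and 5 of 22. The endothelial markers had 10 of 12 and 6 of 8, and the pluripotent cell markers 5 of 15 and 2 of 12. Across the whole lists 39.0% of GLI1 regions were gained and 31.6% of D7 control regions were lost. Sets of so few genes are not compared with each other. Of 4 windows of pluripotent cell markers, 1 was overlapped with GLI1, 1 in D7 control and 2 at D5, and those of Pou5f1 and Nanog were in no list. Neural progenitor markers had 3 of 4 windows overlapped in every list, and the endothelial window, of Tie1, was in no list. The part of other cell types in the Foxa2 result was not tested.

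By counts of regions in the 7 classes of presence over the lists, the 5 genes nearest to Foxa2 by Euclidean distance were Dync1i1 and Mtcl1 (3.0 each), Med12l and Pdzrn3 (3.32 each) and Dpp6 (3.61). Foxa2 itself had 9 regions in the GLI1 list only, 2 in the GLI1 and D5 lists, 2 in all 3 and 5 at D5 only. The class counts of Foxa1 were shared exactly by 18 other genes, of which Aloxe3, Arhgap40, Dlk2, Dpep1 and Ecel1 come first in alphabetical order.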

How the data were processed

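The authors deposited 1 pooled narrowPeak list per group. Per the submitters' processing notes, Bowtie2 2.3.2, SAMtools 1.5, Picard and MACS2 2.1.1 were used with mm10; settings are not given in the sources used here. In each deposited list the authors give the fold (a ratio over the caller's background), −log10 p and −log10 q, a score, and a summit offset in bases.

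Overlapping peaks of a list were merged, each region taking its highest-fold peak (Python 3.11.15, pandas 2.3.3, scipy 1.17.1). Regions sharing 1 base counted as shared. Summits were assigned to the nearest of 21883 RefSeq protein-coding gene intervals (GRCm38.p6). Summit reads came from fold = (reads + 1) / (background + 1), where 1 is the caller's pseudocount, and the Poisson tail at that background. They gave back every deposited −log10 p below 200 of the D7 lists, and all of the D5 list, to within 0.000196. Code was tested on simulated lists. Library read totals were not used here.

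The Foxa genes and all gene lists were chosen with earlier results of these data known. Named genes are the Foxa genes, the 3 highest and 3 lowest by gained minus lost in each list, Ptch1, Foxf1, Gli1 and the 5 most alike; other genes named were chosen after their values were seen, and 1 gene of the rule is not reported here. Alternatives covered overlap, −log10 q of at least 5, list length, distance, gene ends, peaks and fold summaries.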

Additional observations from a re-analysis of the deposited data

How the results depend on the processing

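Foxa regions gained numbered 14, and 9 at a −log10 q of at least 5, where Foxa3 had 0 gained. Foxa regions lost numbered 0, and 3 with all regions within 100 kb whatever the nearest gene, all near Foxa3. Foxa regions opened numbered 3, and 12 by that count. Foxa regions closed numbered 8, and 4 at a −log10 q of at least 5, 3 within 25 kb and 14 with all regions within 100 kb. The gained count of Foxa2 was 7 within 25 kb. The fold ratio at the Foxa2 start was 1.04 with the median of its peaks and 2.47 with folds scaled by the median of shared regions. With the other settings the totals of gained, lost, opened and closed regions stayed within 1.5 times their main counts. No paired analysis was possible because the libraries of a group were merged into 1 list before deposit, which also prevents leaving out a library. The planned search of summit windows was not run, since no genome sequence was used here. Depth limits the D5 list most, where Foxa regions rest on 4 to 16 reads.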

Other observations

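On chromosome 2, the genes on either side of Foxa2 had smaller counts. Pax1, a sclerotome factor gene, had 1 gained and 2 lost regions with GLI1, and 2 opened and 6 closed between D5 and D7 control. Nkx2-2 had 6 gained and 1 lost, and 4 opened and 4 closed. On the other side, Sstr4 had 1 gained and 0 lost, Thbd 1 and 0, and Cd93 2 and 1. Over the 18 listed neighbours of the Foxa genes, 10 had more gained than lost regions and 2 fewer, with a median net of 1. Of all genes with a D7 region these shares were 34.7% and 20.6%, but 3 of the 18 neighbours had no D7 region. Another listed gene, Myl12b, lies on chromosome 17 and was listed in error.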
